A study of Mus musculus with 8 samples.

Results

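The immunoglobulin heavy and light chain genes were taken from the RNA-seq table of WT and TIGAR-knockout (TKO) mouse hearts as every gene symbol of the heavy, kappa, or lambda loci (V, J, and constant genes) with at least 1 estimated count. The rule found 117 of the 16994 genes of the table. They are 48 heavy V, 3 heavy J, 6 heavy constant, 52 kappa V, 4 kappa J, 1 kappa constant, 2 lambda V, and 1 lambda constant gene. The hearts came from male mice, and TKO mice lack Tigar in the whole body. The sources used here do not give the allele of the TKO line. The WT and TKO infarct, border, and remote zone libraries came from hearts whose left anterior descending coronary artery was ligated. Ligation was at 16 weeks of age. Echocardiography ran to 4 weeks after ligation, and the time at which tissue was taken for RNA is not stated. The WT and TKO left ventricle (LV) libraries were taken here as the reference. The sources used here do not state for these libraries whether the hearts were uninjured or sham operated. Infarct zone RNA was pooled from 3 mice per genotype. Each of the 8 groups has 1 library. A ratio of 2 libraries therefore has no replicate check, and its interval covers counting error only.

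An antibody is built from heavy chains and either kappa or lambda light chains. In a developing B cell, 1 V segment is joined to a J segment (with a D segment between them in the heavy chain), and the joined exon is spliced to a constant gene. The heavy constant gene sets the isotype: Ighm encodes the mu chain of IgM, Igha the alpha chain of IgA, and the Ighg genes the gamma chains of the IgG subclasses. Plasma cells, the antibody-secreting end stage of B cells, carry immunoglobulin mRNA at very high levels, and B cells carry it at lower ones.

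The libraries held between 27429240 and 33799249 estimated counts. Tigar had 1066 to 2215 counts in the WT libraries and 51 to 87 in the TKO libraries, so the labels and the targeted gene fit each other. The WT LV library stood apart from the TKO LV library in genes of other cells. The 6 adipocyte markers summed to 2031 counts in the former and 31 in the latter, against 137 to 707 in the other 6 libraries. The 14 B cell markers summed to 555 and 245 counts. The part of this in the immunoglobulin values of the LV was not tested. In bulk tissue, fewer B lineage cells and less RNA per cell cannot be told apart.

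Immunoglobulin RNA was highest in the infarct zone of both genotypes. The 117 genes together had 75154 infarct zone counts, 11956 border zone counts, 3409 remote zone counts, and 6671 LV counts in WT. The sums of TKO were 47498, 6799, 1473, and 695 in the same order. Their share of a library was 0.274% for WT infarct zone, the highest of the 8, and 0.00232% for TKO LV, the lowest. On TMM-scaled library sizes (edgeR), the summed infarct zone level was 7.30-fold above the LV in WT (95% interval 7.12 to 7.48) and 49.5-fold above it in TKO (45.9 to 53.4). The WT LV exceeded the TKO LV 9.07-fold (8.39 to 9.82). The border zone exceeded the LV 1.59-fold in WT (1.55 to 1.64) and 8.54-fold in TKO (7.90 to 9.25). The remote zone was 2.17-fold below the LV in WT (2.08 to 2.27) but 1.82-fold above it in TKO (1.66 to 1.998), so the direction differed between genotypes.

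**Figure D1:**
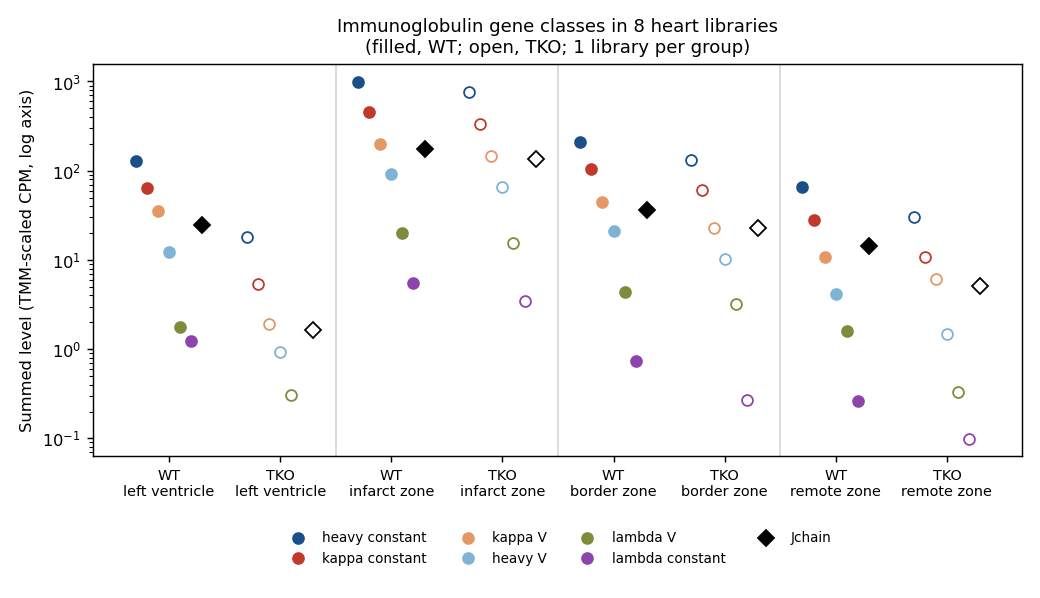
Summed TMM-scaled CPM (log axis) of 6 immunoglobulin gene classes and of Jchain in each of the 8 libraries, with filled symbols for WT and open symbols for TKO. In each class the WT infarct zone is the highest library and the TKO symbol lies below the WT symbol of the same region, and the TKO LV has no lambda constant symbol because Iglc2 had 0 counts there. Levels are not divided by gene length, so classes should not be compared with each other.

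With genotype and region as additive terms over all 8 libraries, the quasi-likelihood test of edgeR (adjusted by Benjamini-Hochberg) called 28.2% of the 12999 genes tested higher in the infarct zone than in the LV. Of the 117 immunoglobulin genes, 44 passed the filter (a mean CPM of at least 1), and 40 of these 44 were called higher and none lower. Many of them passed through their infarct zone counts, so this count describes those genes and is no support for a rise. With no filter, 81 of the 117 were called higher. The share called over the 16964 genes of that fit is not given here, so this count is a description as well. The median log2 difference was 4.50 over the 44 genes and 0.02 over all genes tested. The 4 that were not called were Ighm, Igkv1-117, Igkv15-103, and Igkv16-104, and the WT LV had more counts of each of them than the border and remote zone libraries did. In every test of a region against the LV, the 2 genotypes stand in for repeats, with 1 library each. The p-values and SEs of these tests do not measure a spread between mice. Additive terms take the difference of a region as equal in both genotypes. The summed infarct zone level was 7.30-fold above the LV in WT but 49.5-fold above it in TKO.

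Fewer genes passed elsewhere. In the border zone against the LV, 3 of the 44 were called higher, Igha, Ighg2b, and Igkv8-21, against 0.669% of all genes tested. A positive difference was seen for 39 of the 44, and 26 of these had an unadjusted p under 0.05. Over the 12999 genes tested, 6364 were positive and 1483 of these had such a p. DESeq2 called 9 of the 44, for which no share over all genes is given. In the remote zone edgeR called 0 of the 44, and 0% of all genes tested were called in either direction. There 3 of the 44 were higher and 1 lower at an unadjusted p under 0.05, against 898 and 480 of the 12999 genes tested. Neither share exceeded that of all genes. DESeq2 called Igha alone among the 44, again with no share over all genes given.

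Igha was the heavy constant gene with the largest infarct zone count. It had 24165 counts in the WT and 19991 in the TKO infarct zone, 4774 and 2606 in border tissue, 1343 and 538 in the remote zone, and 500 and 206 in the LV. Both genotypes thus fell in the same order of regions. It was 31.3-fold above the LV in the WT infarct zone (28.7 to 34.3) and 70.3-fold in the TKO infarct zone (61.3 to 81.0), and across genotypes the log2 difference was 5.58 ± 0.36 (SE, edgeR adjusted p = 0.000314). Igha was also called higher in the border zone than in the LV (log2 3.26 ± 0.33, edgeR adjusted p = 0.0300). That call was lost without the remote zone, where the value was 3.25. In the remote zone the log2 difference was 1.22 ± 0.31 (edgeR adjusted p = 0.327).

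Ighm behaved otherwise. In WT it had 2706 counts in the LV, 8657 in infarct tissue, 510 in border tissue, and 518 in remote tissue. The TKO counts were 210, 2887, 429, and 308 in the same order. The WT LV thus held more Ighm than any library outside the infarct zone, and in WT the border and remote zones lay at 0.168 (0.152 to 0.184) and 0.172 (0.157 to 0.189) of it. In TKO both zones lay above the LV, 1.78-fold (1.51 to 2.11) and 1.26-fold (1.06 to 1.51). The infarct zone against LV difference of Ighm did not pass (log2 1.77 ± 0.71, edgeR adjusted p = 0.0727). Without the WT LV library it was 3.62 and passed, and with total counts in place of TMM it was 2.49 and passed.

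The IgG genes other than Ighg2c had their highest counts in the infarct zone of both genotypes. Ighg1 had 3443 counts in the WT infarct zone and 1229 in the TKO infarct zone, 532 and 342 in border tissue, 29 and 14 in the remote zone, and 219 and 9 in the LV. Ighg2b had 4138 and 2588 in the infarct zone, 661 and 468 in border tissue, 88 and 26 in the remote zone, and 66 and 22 in the LV. Ighg3, the subclass usually tied to T cell–independent responses, had 1782 and 385 in the infarct zone and between 4 and 39 in the other 6 libraries. All of these were called higher in the infarct zone than in the LV. Their log2 differences were 4.05 ± 0.65 for Ighg1, 5.77 ± 0.35 for Ighg2b, and 5.42 ± 0.45 for Ighg3 (SE, edgeR adjusted p = 0.00288, 0.000282, and 0.000526). In the border zone Ighg2b was called (log2 3.58 ± 0.34, edgeR adjusted p = 0.0300), whereas Ighg1 was at 2.18 ± 0.65 (edgeR adjusted p = 0.180) and Ighg3 at 1.02 ± 0.51 (edgeR adjusted p = 0.351). The Ighg2b call was lost without the infarct or the remote zone, where the value was 3.66 and 3.56, and Ighg1 was at 4.85 and passed without the WT LV library.

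Ighg2c, the gamma 2c gene that C57BL/6 mice carry, had 4 to 18 counts in every library and did not pass the filter. Its highest count, 18, was in the TKO LV, and the WT and TKO infarct zones had 17 and 4. Ighg2c thus showed none of the regional pattern of the other heavy constant genes. Of its 31-base stretches, 11.7% also occur in other transcripts, close to the 12.7% of Ighg2b, so low counts of either gene can include reads of a near copy.

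Divided by the length of the shortest annotated transcript of each gene, the isotype makeup differed most between the LV of WT and the remaining libraries. Ighm made up 70.6% of the length-scaled heavy constant level in the WT LV and 37.3% in the TKO LV. In the infarct zone it made up 15.95% in WT and 8.08% in TKO, in border tissue 5.88% and 8.39%, and in the remote zone 20.3% and 27.5%. Igha took 17.7% in the WT LV, 49.7% in the TKO LV, and between 60.4% and 75.9% in the 6 libraries from infarcted hearts. The 4 IgG genes together took 23.6% in the WT and 15.98% in the TKO infarct zone, 19.4% and 22.5% in border tissue, 8.34% and 7.15% in the remote zone, and 11.7% and 13.0% in the LV. These shares depend on the transcript used, since the longest transcript of Igha has 2540 bases and the shortest 1100. With the longest transcripts, Ighm took 52.9% and Igha 34.7% in the TKO LV, so their order there reversed, while Igha stayed above Ighm in each of the 6 libraries from infarcted hearts and below it in the WT LV.

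**Figure D2:**
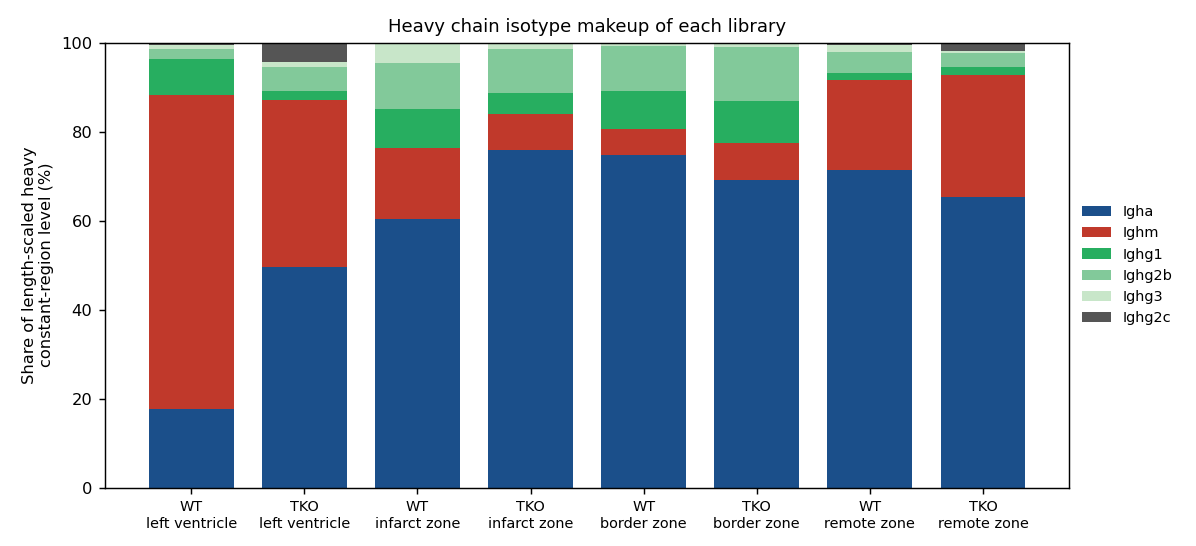
Share of the length-scaled heavy constant-region level (percent, shortest annotated transcript) taken by each isotype gene in each of the 8 libraries. The WT LV is the bar with a majority of Ighm (70.6%), and Igha takes 60.4% to 75.9% of the bars of the infarct, border, and remote zones.

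Igkc, the only kappa constant gene, followed the heavy chain. It had 19353 counts in the WT and 12005 in the TKO infarct zone, 3213 and 1825 in border tissue, 861 and 325 in the remote zone, and 1745 and 141 in the LV. The infarct zone exceeded the LV by log2 4.08 ± 0.74 (SE, edgeR adjusted p = 0.00441). The border zone difference was 1.74 ± 0.68 (edgeR adjusted p = 0.265). Without the WT LV library it was 3.46 and passed. Jchain, which encodes the chain that links IgM and IgA into polymers, moved beside Igkc. The ratio of Igkc to Jchain counts lay between 1.97 and 3.36 in all 8 libraries, whereas that of Igha to Ighm counts ran from 0.185 in the WT LV to 9.36 in the WT border zone.

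Lambda chain RNA was scarce. Iglv1, the main lambda V gene, had 818 and 509 counts in the WT and TKO infarct zones, 128 and 90 in border tissue, 41 and 9 in the remote zone, and 47 and 8 in the LV. It was called higher in the infarct zone than in the LV (log2 4.25 ± 0.53, edgeR adjusted p = 0.00150). Iglc2 had 233 and 123 in the infarct zone, 23 and 8 in border tissue, 8 and 3 in the remote zone, and 34 and 0 in the LV. Its infarct zone difference was 3.36 ± 0.90 (SE, edgeR adjusted p = 0.0190). Iglv3 had 36 and 41 counts in the infarct zone and at most 8 elsewhere. The other lambda constant genes and Ighd were not analysed here.

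V gene use shows how the antibody RNA of a library is spread over variable segments. The 3′ ends of the V genes that the following results turn on are shown from the GENCODE M21 transcripts (GRCm38, the build of the files), sense strand, 5′ to 3′. Capitals mark the codons of the conserved Tyr-Tyr-Cys or Tyr-Phe-Cys motif, whose cysteine closes framework 3. The bases after it are the germline start of CDR3, the loop that V and J segments form together, with a D segment in the heavy chain only.
Igkv1-117: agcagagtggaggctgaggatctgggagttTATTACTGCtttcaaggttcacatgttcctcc
Igkv1-110: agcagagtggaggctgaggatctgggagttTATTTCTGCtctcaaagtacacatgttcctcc
Igkv8-21: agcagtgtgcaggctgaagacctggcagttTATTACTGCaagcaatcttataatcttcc
Igkv16-104: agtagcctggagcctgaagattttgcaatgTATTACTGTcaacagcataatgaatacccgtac
Ighv9-3: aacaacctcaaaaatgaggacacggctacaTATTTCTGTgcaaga
Ighv10-1: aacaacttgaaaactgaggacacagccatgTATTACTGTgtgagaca
Ighv10-3: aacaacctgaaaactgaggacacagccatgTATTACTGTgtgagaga
Ighv1-54: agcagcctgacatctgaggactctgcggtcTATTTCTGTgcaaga
Igkv1-117 and Igkv1-110 carry the same 30 bases before the motif and differ after it. The kappa genes lie on chromosome 6, Igkv1-117 at chr6:68121046-68121827 (+), Igkv1-110 at chr6:68270485-68271267 (+), Igkv8-21 at chr6:70314895-70315472 (−), and Igkv16-104 at chr6:68425575-68426072 (+). The heavy genes lie on chromosome 12 on the minus strand, Ighv9-3 at chr12:114140692-114141122, Ighv10-1 at chr12:114479005-114479451, Ighv10-3 at chr12:114523441-114523905, and Ighv1-54 at chr12:115193675-115194134. These are the spans of the genes, and the exons printed are coding sequence. V genes are near copies of each other. A median of 52.9% of the 31-base stretches of a kappa V transcript and 44.5% of those of a heavy V transcript also occur in other transcripts, so the authors' counting may have split reads among them. The share was 62.6% for Igkv1-117, 63.6% for Igkv1-110, 49.1% for Igkv8-21, 0.287% for Igkv16-104, 42.7% for Ighv9-3, 40.7% for Ighv10-1, 38.6% for Ighv10-3, and 26.2% for Ighv1-54.

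Kappa V use was narrow in the WT LV and broad in the libraries from infarcted hearts. In the WT LV Igkv1-117 took 36.8% of 957 kappa V counts (exact binomial interval 33.7 to 39.9) and Igkv16-104 another 12.9%. The unbiased Simpson number, the count of equally used genes that would give the same evenness, was 5.95 (5.32 to 6.74), and it was 12.1 without Igkv1-117. In the WT and TKO infarct zones it was 22.8 (22.1 to 23.6) and 28.1 (27.1 to 29.1), in the border zones 22.3 (20.6 to 24.2) and 26.7 (23.9 to 30.2), and in the remote zones 22.2 (19.0 to 26.8) and 14.5 (11.2 to 20.8). The 50 kappa V counts of the TKO LV gave 26.6 with an interval of 17.3 to 58.2. All 52 kappa V genes had a count in both infarct zones, and 47 had one in the WT LV.

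Heavy V use was also least even in the WT LV among libraries with over 100 counts, although the interval of the WT remote zone overlapped it. Ighv1-54 and Ighv9-3 took 18.5% and 17.9% of the 336 heavy V counts of the WT LV, and the Simpson number was 11.6 (9.83 to 14.2). It was 18.5 (17.7 to 19.4) in the WT infarct zone and 26.5 (25.2 to 27.9) in the TKO infarct zone, so the TKO infarct zone was the more even of the pair in both chains. In the border zone it was 20.9 (18.8 to 23.5) in WT and 25.3 (21.6 to 30.7) in TKO. The remote zones gave 16.5 (13.3 to 21.9) and 16.03 (9.91 to 42.0), and the 24 heavy V counts of the TKO LV gave an interval from 11.5 upward. Ighv1-54, with 62 counts in the WT LV, had 16 and 13 in the infarct zones, where heavy V counts were many times higher.

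The libraries from infarcted hearts shared more of their V use with each other than with the WT LV. The overlap of 2 libraries is the sum over genes of the smaller of the 2 shares. For kappa V it was 75.9% between the WT and TKO infarct zones, 75.7% between the border zones, and 80.9% between the TKO infarct and TKO border zones. The WT LV overlapped the WT infarct, WT border, and WT remote zones by 47.3%, 43.1%, and 42.3%. The contrast was small for the TKO remote zone, which overlapped the WT LV by 54.5% and the WT remote zone by 55.1%. For heavy V the WT and TKO infarct zones overlapped by 73.6%, and the WT LV and the WT infarct zone by 53.3%. Libraries under 100 V counts were left out.

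Single V genes set the infarct zones apart. Igkv8-21 had 965 counts in the WT infarct zone and 88 in the TKO infarct zone, 76 and 17 in border tissue, 13 and 1 in the remote zone, and 2 and 1 in the LV. It led the kappa V counts of the WT infarct zone with 11.4% (10.7 to 12.05) and took 1.67% (1.34 to 2.05) in the TKO infarct zone. Igkv8-21 was called higher in the infarct zone (log2 7.55 ± 0.57, edgeR adjusted p = 0.000373) and in border tissue (4.80 ± 0.62, edgeR adjusted p = 0.0397) than in the LV. The border zone call was lost without the infarct zone, without the remote zone, or without the WT LV library, where the value was 4.66, 4.78, and 3.28.

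Ighv10-1 and Ighv10-3, a pair of related genes, showed the same tilt toward WT. Ighv10-1 had 451 and 69 counts in the WT and TKO infarct zones, 39 and 8 in border tissue, 11 and 0 in the remote zone, and 6 and 1 in the LV. Ighv10-3 had 318 and 60 in the infarct zone, 19 and 6 in border tissue, 5 and 1 in the remote zone, and 0 and 2 in the LV. The family made up 19.8% of heavy V counts in the WT infarct zone and 5.53% in the TKO infarct zone. The Ighv1 family, the largest of the table with 20 genes, made up 39.6% and 47.6%.

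Further V genes peaked in the infarct zone. Ighv10-3 exceeded the left ventricle by log2 6.59 ± 0.91, Igkv5-48 by 6.17 ± 0.90, Igkv4-57-1 by 6.16 ± 1.01, and Igkv12-46 by 5.81 ± 0.61 (SE, edgeR adjusted p = 0.00188, 0.00213, 0.00305, and 0.00096). Of Ighv1-72, among the 6 highest heavy V genes, 98.1% of the 31-base stretches occur in other transcripts, and its counts are uncertain.

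**Figure D3:**
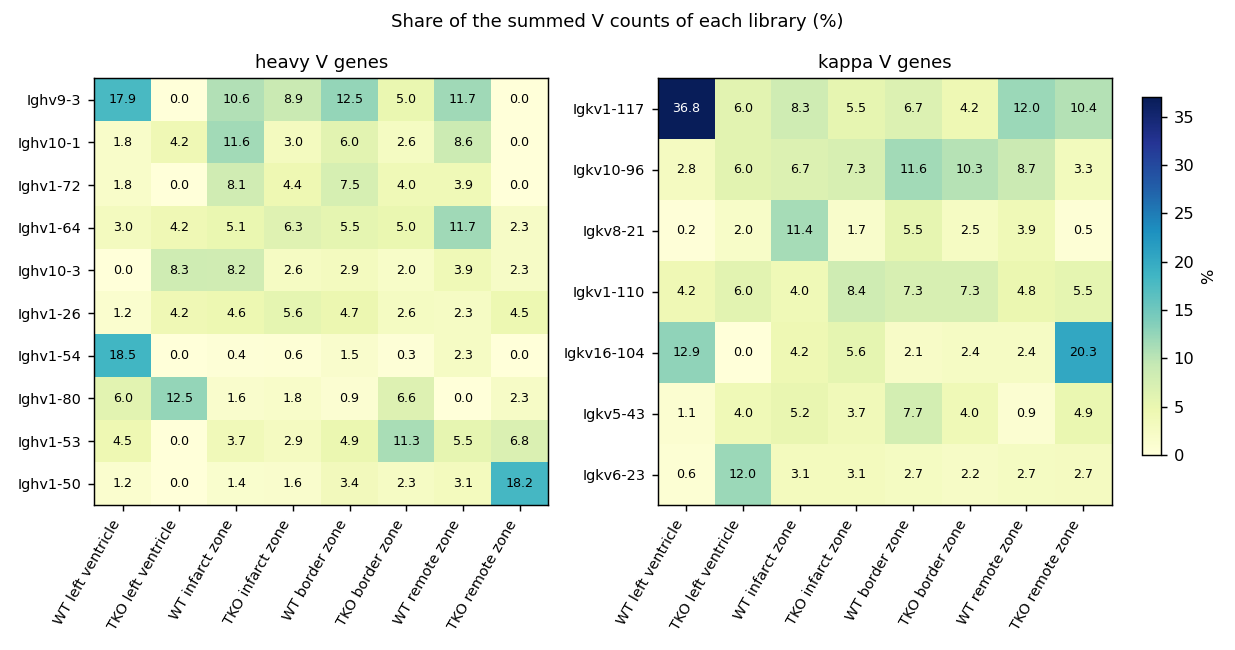
Share (percent) of the summed heavy V counts (left) or kappa V counts (right) of each library taken by the V genes that were highest on average or led a library. The WT LV column stands apart with Igkv1-117 at 36.8% and Ighv1-54 at 18.5%, Igkv8-21 reaches 11.4% in the WT infarct zone only, and the TKO LV and TKO remote zone columns rest on 24 to 182 counts.

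The J segments had few counts. Capitals mark the codons of the Trp-Gly-X-Gly motif of heavy J segments and the Phe-Gly-X-Gly motif of kappa J segments, which open framework 4. The 3 heavy segments and Igkj1 are shown from the same transcripts, since the heavy J ratio differed in side from that of the V genes.
Ighj1: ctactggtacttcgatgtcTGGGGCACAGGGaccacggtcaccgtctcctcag
Ighj3: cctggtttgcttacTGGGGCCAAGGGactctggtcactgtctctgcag
Ighj4: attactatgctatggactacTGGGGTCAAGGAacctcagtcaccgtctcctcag
Igkj1: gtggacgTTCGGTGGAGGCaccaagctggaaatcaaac
The heavy J segments lie at chr12:113429781-113429833 (Ighj1), chr12:113429085-113429132 (Ighj3), and chr12:113428514-113428567 (Ighj4), all on the minus strand. Igkj1 lies at chr6:70722562-70722599 on the plus strand. Ighj4 was the most counted, with 31 counts in the WT and 44 in the TKO infarct zone and at most 8 in any other library. Ighj1 had 19 and 24, and Ighj3 had 12 and 15. The heavy J counts summed to 62 in the WT and 83 in the TKO infarct zone, at a ratio (TKO over WT) of 1.58 (1.13 to 2.24), on the opposite side of 1 from the heavy V ratio of 0.712 (0.676 to 0.7502). The kappa J ratio was 0.836 (0.577 to 1.20). These targets are only 38 to 54 bases long.

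Between genotypes, immunoglobulin RNA was lower in TKO in each region by sum, to very different extents. The TKO over WT ratio of the 117 genes together was 0.110 in the LV (0.102 to 0.119), 0.748 in the infarct zone (0.739 to 0.757), 0.591 in border tissue (0.573 to 0.609), and 0.437 in the remote zone (0.411 to 0.464). In the infarct zone the ratio was 0.610 with total counts in place of TMM and 0.638 without Igha, the gene with the most counts. In the LV 91 of the 103 genes with a count were lower in TKO. The numbers were 83 of 112 in border tissue, 69 of 99 in the remote zone, and 69 of 117 in the infarct zone, where 48 genes were higher in TKO.

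Among the 44 genes that passed the filter, 34 were at least 2-fold lower in the TKO LV after a prior count of 2, against 3.62% of all genes tested. In the infarct zone 13 of the 44 were, against 1.43%, in border tissue 23, against 3.26%, and in the remote zone 24, against 2.39%. Over the 44, the median ratio of TKO to WT ran from 0.237 in the LV to 0.720 in the infarct zone, and that of all genes tested from 0.993 to 1.01. Ratios between 2 libraries have no replicate check, and these genes share the cells that make them, so the counts are not independent of each other. Many of the 44 passed the filter through their WT infarct zone counts, which favors genes high in WT, so these counts are a description and no support for a difference. In the infarct zone 37 of the 44 were lower in TKO, against 69 of the 117 without the filter.

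The constant genes differed from each other in the infarct zone. Igha was nearly level there, at a TKO over WT ratio of 0.979 (0.961 to 0.998), and total-count scaling, which lowers every infarct zone ratio alike, moves it further below 1. Ighg2b was at 0.740 (0.704 to 0.778) and Igkc at 0.734 (0.717 to 0.751). Ighg1 was at 0.422 (0.395 to 0.451), Ighm at 0.395 (0.378 to 0.412), and Ighg3 at 0.256 (0.228 to 0.286). The spread between Igha and Ighg3 is a ratio within the same libraries and does not depend on the scaling.

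In the border zone the same genes lay closer together and in another order. Ighm was at 0.874 (0.767 to 0.995), Ighg2b at 0.735 (0.652 to 0.829), Ighg1 at 0.668 (0.581 to 0.766), Igkc at 0.590 (0.557 to 0.625), and Igha at 0.567 (0.540 to 0.595). The difference of Ighg3 was not detectable at this depth (0.692, 0.405 to 1.17). In the remote zone the ratios were 0.601 (0.520 to 0.693) for Ighm, 0.405 (0.366 to 0.448) for Igha, 0.381 (0.335 to 0.434) for Igkc, 0.299 (0.185 to 0.467) for Ighg2b, and 0.144 (0.0368 to 0.413) for Ighg3.

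In the LV, Ighg1, Ighm, and Igkc had lower ratios than in any other region. For Igha, Ighg2b, and Ighg3 the LV and remote zone ratios could not be told apart, since their intervals overlapped. Ighg3 had only 5 TKO counts in the LV and 4 in the remote zone. Ighg1 was at 0.0435 (0.0196 to 0.0841), Ighm at 0.0821 (0.0710 to 0.0945), and Igkc at 0.0855 (0.0715 to 0.102). Igha, at 0.436 (0.369 to 0.514), and Ighg2b, at 0.353 (0.207 to 0.579), lay higher, and their intervals did not meet those of the first 3. Ighg3 was at 0.189 (0.0570 to 0.496). Iglc2 had 34 counts in WT and 0 in TKO, which makes it at least 10.7-fold higher in WT with TKO taken at a floor of 3 counts.

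**Figure D4:**
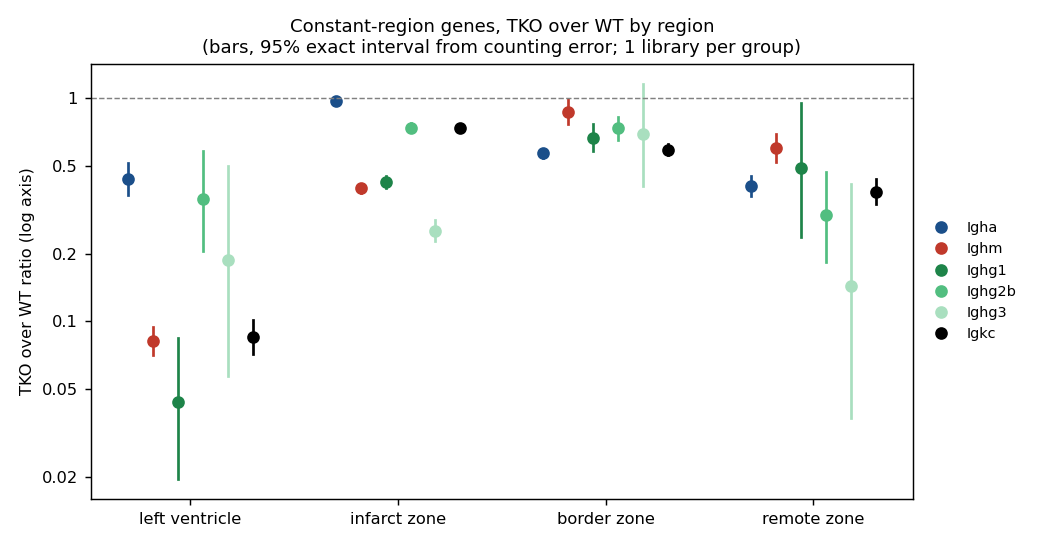
TKO over WT ratio (log axis, TMM-scaled) of 6 constant-region genes in the 4 regions, with 95% exact intervals from counting error. In the LV Ighm, Ighg1, and Igkc lie below 0.1 while Igha and Ighg2b lie above 0.3, and in the infarct zone Igha lies at 0.979 and Ighg3 at 0.256.

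With the 4 regions as blocks, the genotype difference was tested across all regions. These tests bear on regions rather than on mice, since the regions stand in for repeats. edgeR called 0 of the 44 immunoglobulin genes that passed the filter lower in TKO at an adjusted p of 0.05, against 0.0615% (8 of 12999) of all genes tested. As a description of genes that passed largely through the infarct zone, all 44 had a negative difference and 21 had an unadjusted p under 0.05 (1143 of all genes tested did so in that direction), with a median log2 difference of −1.19 against −0.00 over all genes. The DESeq2 Wald test called 7 of the 44 lower, which were Igha, Ighg2b, Ighg3, and 4 V genes, Ighv10-1 and Igkv8-21 among them. No share over all genes is given for that test. edgeR called Igkv8-21 alone without the LV or without its WT library.

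Igkv8-21 had the smallest adjusted p of the members named here, with a log2 difference of −2.74 ± 0.34 (SE, edgeR adjusted p = 0.0713) and fewer counts in TKO in 4 of 4 regions. Igha was at −0.82 ± 0.22 (edgeR adjusted p = 0.202), Ighg2b at −0.77 ± 0.22 (0.219), Ighg3 at −1.74 ± 0.33 (0.158), and Ighg1 at −1.45 ± 0.48 (0.246). Ighm was at −1.42 ± 0.53 (edgeR adjusted p = 0.281), Igkc at −1.43 ± 0.49 (0.254), and Iglc2 at −1.67 ± 0.69 (0.304). Each of these genes had fewer counts in TKO in 4 of 4 regions, and none passed.

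Whether the genotype difference of 1 region departed from that of the other 3 was tested with a term for TKO in that region. For the LV, 0.423% of all genes tested departed downward, and so did 1 of the 44 immunoglobulin genes, Igkv1-117. It had 352 counts in the WT LV and 3 in the TKO LV, 703 and 289 in the infarct zone, 93 and 28 in border tissue, and 40 and 19 in the remote zone. TKO lay below WT in each region, at a ratio of 0.00902 (0.00185 to 0.0266) in the LV and 0.486 (0.423 to 0.559) in the infarct zone. The departure was −5.51 ± 0.52 on the log2 scale (SE, edgeR adjusted p = 0.0340), and it rests on 1 WT and 1 TKO library.

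Other genes departed in the same direction without passing. The departure of the LV was −2.81 ± 0.45 for Ighm (edgeR adjusted p = 0.0721), −3.56 ± 0.49 for Ighg1 (0.0545), and −2.71 ± 0.40 for Igkc (0.0615). For Igha it was −0.50 ± 0.51 (edgeR adjusted p = 0.668). DESeq2 called 6 of the 44 and edgeR with total counts called 7, and both sets included Ighm, Ighg1, and Igkc. No share over all genes is given for the DESeq2 and total-count fits of these departures, so their calls are a description. Adipoq (adiponectin) and Cidec, both adipocyte genes, departed as well, by −5.00 and −5.74. They had 370 and 388 counts in the WT LV and 6 of each in the TKO LV. No immunoglobulin gene was called in edgeR's test for the infarct, border, or remote zone. DESeq2 called Igha for the infarct zone, where the departure was 1.07 ± 0.23 in edgeR (adjusted p = 0.410).

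Not all V genes were lower in TKO. Igkv1-110, with 343 and 441 counts in the WT and TKO infarct zones, had a ratio of 1.52 there (1.32 to 1.76) and led the kappa V counts of the TKO infarct zone with 8.37%. In the LV it had 40 and 3 counts, in border tissue 101 and 49, and in the remote zone 16 and 10. Igkv16-104 had 361 and 293 in the infarct zone, a ratio of 0.960 (0.820 to 1.12) whose difference was not detectable at this depth, 29 and 16 in border tissue, and 123 and 0 in the LV. In the remote zone it went the other way, with 8 counts in WT and 37 in TKO, a ratio of 4.67 (2.14 to 11.6).

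V pairs known from mouse B-1 cells, an innate-like B cell type, were looked at after their values had been seen. Ighv11-2 and Igkv14-126, which together bind phosphatidylcholine, had 16 and 55 counts in the WT LV and 1 and 0 in the TKO LV. In the infarct zone Ighv11-2 had 81 in WT and 7 in TKO, and Igkv14-126 had 122 and 32. In the border and remote zones each had at most 3 counts per library. Ighv12-3, of another such pair, had 36 and 12 counts in the WT and TKO infarct zones and at most 3 elsewhere, and its partner Igkv4-91 had 116 and 73 there, 25 and 0 in the LV, 33 and 9 in border tissue, and 4 and 0 in the remote zone.

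B cell and plasma cell genes were examined beside the antibody genes. Cd79a, a signaling subunit of the B cell receptor, had 90 and 16 counts in the WT and TKO LV, 271 and 137 in the infarct zone, 53 and 22 in border tissue, and 38 and 23 in the remote zone. Ms4a1 (CD20) had 57 and 7, 148 and 45, 15 and 14, and 13 and 10 in the same order. The markers of the list did not all behave alike. In the LV Cd79b had 68 and 9 counts, but Cd72 had 69 and 58. Blk had 54 and 89 counts in the LV, 184 and 186 in the infarct zone, 143 and 142 in border tissue, and 145 and 136 in the remote zone. Against 28.2% of all genes tested, edgeR called 5 of the 8 B cell markers that passed the filter (of 14) higher in the infarct zone than in the LV and 0 lower, while 0 of 8 were called for genotype. Of the 14 plasma cell markers 11 passed, 7 were called higher in the infarct zone, and 0 were called for genotype. Lists of other cells rose there as well, with 6 of 7 T cell, 6 of 6 pan-leukocyte, 8 of 8 macrophage, 6 of 6 fibroblast, and 5 of 5 red blood cell genes called higher.

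Among the 14 plasma cell genes of the list, Jchain had ratios near those of the antibody genes. It had 669 and 42 counts in the LV, 7445 and 4839 in the infarct zone, 1127 and 668 in border tissue, and 438 and 154 in the remote zone. Its TKO over WT ratio was 0.0664 (0.0474 to 0.0908), 0.769 (0.742 to 0.798), 0.616 (0.559 to 0.678), and 0.355 (0.294 to 0.428) in these regions. Mzb1, a plasma cell chaperone cofactor, had 36 and 18, 258 and 130, 44 and 40, and 36 and 30, so its border and remote zone differences were within their counting error. Xbp1, a transcription factor of the secretory program that many cells express, had 1690 to 3779 counts. It had 2155 and 1857 in the LV, where the whole list had 4834 and 3731. In the infarct zone it had 3779 and 2673 of 21806 and 14017. The LV sums of the list were 176 and 144 in TMM-scaled CPM, so the list did not share the low LV ratio of Jchain. In the LV Pou2af1 (53 and 6 counts) was far lower in TKO, whereas Sdc1 (123 and 219) and Prdm1 (83 and 113) were higher.

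Genes that draw in or sustain B cells were mixed. Cxcl13, the chemokine that attracts B cells into follicles, had 194 and 4 counts in the LV, 761 and 172 in the infarct zone, 24 and 32 in border tissue, and 39 and 18 in the remote zone. It was not called between infarct zone and LV (log2 2.02 ± 0.96, edgeR adjusted p = 0.115). Ccl21a, which guides lymphocytes through CCR7, rose by 2.84 ± 0.14 in the infarct zone and 1.23 ± 0.14 in border tissue (edgeR adjusted p = 0.000201 and 0.0334). Of the 10 genes of this list 6 passed the filter, and 4 were called higher in the infarct zone, against 28.2% of all genes tested. For genotype 0 were called. Tnfsf13b (BAFF) had at most 17 counts in any library.

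A list of receptors that bind antibody was examined too. Of the 10 genes of that list 6 passed, and 5 were called higher in the infarct zone, against 28.2% of all genes tested. Across regions 1 was called lower in TKO, against 0.0615% of all genes tested. It was Fcgr2b, the inhibitory IgG receptor (log2 −0.62 ± 0.07, edgeR adjusted p = 0.0493). The difference kept its size (−0.61 to −0.65) but the call was lost when the infarct, border, or remote zone was left out, with DESeq2 size factors, or with a filter at a mean CPM of 0.2. Pigr, which carries IgA across epithelia, had 37 and 50 counts in the infarct zone and at most 5 elsewhere. Of 8 genes of the surrogate light chain and of recombination, 4 are in the table and none passed the filter. Their sum ran from 2 counts in the WT border zone to 97 in the TKO border zone, where Rag1 had 0 and 54. A list of thymus genes was at a TKO over WT ratio of 1.80 (1.45 to 2.23) there, but it shares Dntt, Rag1, and Rag2 with this list. In border tissue Dntt had 0 and 30 counts and Rag2 had 2 and 11, so the thymus ratio is not a second observation. Cd1d1, the thymus gene with the most counts there, had 98 and 107. The part of thymus tissue was not tested.

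Beside these, the pan-leukocyte list was lower in TKO by a like factor in each region. Its 6 genes summed to a TKO over WT ratio of 0.669 (0.619 to 0.722) in the LV, 0.622 (0.604 to 0.640) in the infarct zone, 0.614 (0.581 to 0.650) in border tissue, and 0.666 (0.625 to 0.710) in the remote zone. Ptprc (CD45), Coro1a, and Cd53 of that list were called lower across regions by edgeR, against 0.0615% of all genes tested. Each of these calls was lost without the infarct, border, or remote zone. Those of Coro1a and Cd53 were also lost with DESeq2 size factors and with a filter at a mean CPM of 0.2. The immunoglobulin ratio ran from 0.110 to 0.748 over the same regions. The red blood cell list, which follows retained blood, had ratios of 1.29, 1.06, 1.22, and 0.976, and the T cell list 0.771, 0.701, 1.06, and 0.901. The macrophage list was at 0.860, 0.7503, 0.755, and 0.693, and the fibroblast list at 1.14, 0.837, 0.534, and 0.648. The cardiomyocyte list was at 2.06 in the infarct zone and 1.05 in the LV. The part of any of these cell types in the immunoglobulin values was not tested.

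**Figure D5:**
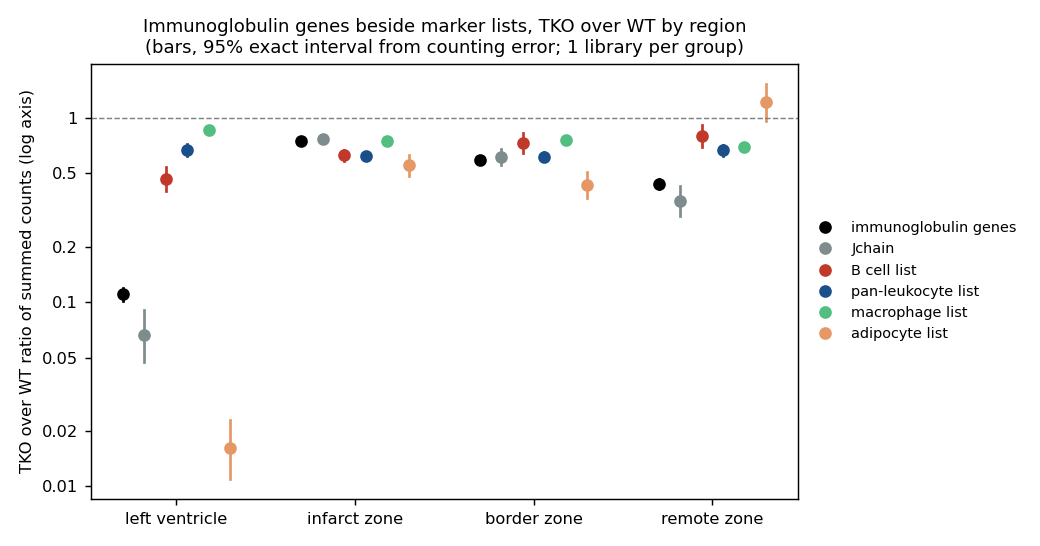
TKO over WT ratio of summed counts (log axis, TMM-scaled) for the 117 immunoglobulin genes, Jchain, and 4 marker lists in the 4 regions, with 95% exact intervals from counting error. In the LV the immunoglobulin genes (0.110), Jchain (0.0664), and the adipocyte list (0.0162) lie far below the pan-leukocyte list (0.669), and in the infarct zone all 6 lie between 0.552 and 0.769.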

How the data were processed

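RNA from the left ventricle and from infarct, border, and remote zones of WT and TKO hearts was sequenced as 8 libraries. The authors trimmed reads with Trim Galore 0.6.5, quantified transcripts with kallisto 0.46 on mm10, and deposited estimated counts summed per gene with tximport, as whole numbers. These were used as counts, with 27429240 to 33799249 per library. The 12999 of 16994 genes that reached a mean CPM of 1 were tested in edgeR 4.0.16 (R 4.3.3) by quasi-likelihood, with terms for region and genotype and an adjusted p of 0.05. DESeq2 1.42.0, total counts, other filters, and leaving out regions were alternatives. Ratios of 2 libraries used TMM-scaled sizes with exact 95% intervals and, against 0, a floor of 3 counts. The scripts were tested on simulated data. Genes named are the constant genes, the 6 heavy V and 6 kappa V genes highest on average, the leading V gene of a library, lambda V genes, J genes with 10 counts in a library, up to 6 members called per test with the largest differences, and list genes. Members and lists were chosen with earlier results of these data known. Promoter, protein, and octamer motif sequence was not analysed here. The values of 1 B cell marker are not reported here.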

Additional observations from a re-analysis of the deposited data

Results flagged for a closer look

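Igkv1-117 stood out because TKO against WT differed more in the left ventricle than in the other 3 regions, by −5.51 on the log2 scale (edgeR, term for TKO in that region). It had 352 counts in WT and 3 in TKO there, and 289 to 703 counts in the infarct zones. The difference rests on 1 library of each genotype. The adipocyte genes Adipoq and Cidec departed in the same library pair, and their part in the Igkv1-117 value was not tested.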

How the results depend on the processing

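No paired analysis was possible because each group has 1 library, so no replicate numbers are shared. The genotype test compares TKO with WT within regions. Across alternatives, the number of immunoglobulin genes called lower in TKO was 7 with DESeq2, 2 with total counts, 1 without the WT left ventricle library, and 0 to 1 when a region was left out (0 as reported). Those higher in the infarct zone numbered 81 with no filter and 77 at a mean CPM of 0.2 (40 as reported), because more genes were tested. Those higher in the border zone were 9 with DESeq2 and 0 to 1 without the remote or the infarct zone (3 as reported), and in the remote zone 1 with DESeq2. The left ventricle departure counted 6 with DESeq2, 7 with total counts, and 2 with no filter (1 as reported), and the infarct zone departure 1 with DESeq2. The TKO over WT ratio of the 117 genes was 0.129 in the left ventricle without Ighm, 0.610 with total counts and 0.638 without Igha in the infarct zone, and 0.552 with total counts in the border zone. Lambda V in the infarct zone became 1.35 without Iglv1. Without the WT left ventricle library, signs turned for Ighm in the border zone (0.55) and for Igkc (1.30), Ighg1 (0.47), Ighg3 (0.31), Ighm (0.30), and Iglc2 (4.97) in the remote zone. Iglc2 in the border zone became −0.00716 with DESeq2 size factors, and the infarct zone departure of Ighm −0.14 with total counts. The cause was not tested. The median log2 difference of all genes between infarct zone and left ventricle was 0.71 with total counts and 0.02 with TMM. The alternatives without the WT left ventricle library and with the longest transcripts were chosen after seeing the data. No share of all genes called is given for any alternative, so the counts of called genes under them are a description. With 1 library per group, depth sets only counting error.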
